A study of Homo sapiens with 12 samples.

Results

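The replication-dependent histone genes lie side by side in clusters, and their chromatin was followed here through 3 histone H3 marks in 4 related human colorectal cancer cell lines. The clusters were taken as 3 windows on build hg19: the first HIST1 window, chr6:26015000-26290000 (275 kb), the second HIST1 window, chr6:27770000-27865000 (95 kb), and the HIST2 window, chr1:149780000-149870000 (90 kb). Every deposited region that overlapped a window was a member, so members may lie at other genes in the windows too. These were 75 of 36400 regions of H3K4me3, 76 of 50000 intervals of H3K27me3 and 41 of 157878 regions of H3K79me3. The first HIST1 window held 37, 40 and 19 of them in that order of marks, the second 18, 18 and 9, and the HIST2 window 20, 18 and 13.

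The study immunoprecipitated chromatin with antibodies against each mark and sequenced it, with 1 library per line and mark and 12 libraries in all. DLD1 is the parental colorectal cancer line and is labelled epithelial. SA was derived from DLD1 through colonies in soft agar and SPH through colonospheres, which are spheres of colon cancer cells, and both are labelled mesenchymal. METS was derived from a lung metastasis of a xenograft and is labelled epithelial. All 4 lines grew in the same serum-supplemented McCoy's 5A medium with penicillin and streptomycin. Each derivative stands for a single derivation in these data, so selection, culture history and state cannot be told apart. The titles call the derivatives parental as well, and the lines were told apart by their descriptions.

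These genes supply the histones that package newly copied DNA. They encode the core histones H2A, H2B, H3 and H4, which form the nucleosome, and the linker histone H1, which binds the DNA entering and leaving it. They are short, have almost no introns, are transcribed mainly in S phase, and their mRNAs end in a stem-loop in place of a poly(A) tail. Transcription depends on NPAT, which gathers at the clusters in nuclear bodies. Many of the genes are arranged in divergent pairs, often an H2A beside an H2B gene, with a shared stretch of promoter. H3K4me3 marks active promoters, H3K27me3 is placed by Polycomb at silenced genes, and H3K79me3 is placed by DOT1L over transcribed gene bodies.

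RefSeq listed 66 protein-coding genes under HIST1 or HIST2 names, 55 of HIST1 and 11 of HIST2. The HIST1 genes were 6 of H1, 12 of H2A, 15 of H2B, 10 of H3 and 12 of H4, and the HIST2 genes were 4 of H2A, 2 of H2B, 3 of H3 and 2 of H4. RefSeq positions are on GRCh38.p14 and the deposited regions on hg19, so no region is given a gene name here and regions are named by position. The promoter table (250 bases before and 50 after each start) held 65 promoters of 61 of these genes. The entries not found were H2AC12, H3C11, H3C12, H4C1 and H4C3.

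Short promoter motifs differed in how often they occurred among the genes of each histone, and some were shared by several. Each motif was searched on both strands. The H1 box AAACACA was in 6 of 6 promoters of H1 genes, in 1 of 15 of H2A, 2 of 13 of H3 and none of the 19 of H2B or 12 of H4, against 5.64% of all 35116 promoters. The octamer ATTTGCAT, the site of the POU factor OCT1, was in 15 of 19 promoters of H2B and 11 of 15 of H2A genes, in 1 of 13 of H3 and in none of H1 or H4, against 1.77% of all promoters. CCAAT, bound by NF-Y, was in every promoter of H1, H2A, H2B and H3 genes and in 3 of 12 of H4 genes, against 34.6% of all. TATAAA was in 3 of 6 promoters of H1, 12 of 15 of H2A, 14 of 19 of H2B, 9 of 13 of H3 and 6 of 12 of H4, against 11.5%. Divergent neighbours can hold the same copy of a motif, and a match describes letters and not a bound site.

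The promoters below show this layout and, for the first pair, why reads from HIST2 can be ambiguous. They come from RefSeq, build GRCh38.p14, and are written 5′ to 3′ in the direction of the gene. Capitals mark the motifs named above on either strand: the CCAAT and TATA motifs in the H2AC18 and H2AC19 promoters, these and the H1 box in that of H1-1, and the octamer and the CCAAT motif in that of H2BC18. H2AC18 (chr1:149842701-149843000, minus strand) and H2AC19 (chr1:149850811-149851110, plus strand) encode H2A and face in opposite directions, H1-1 (chr6:26017738-26018037, minus strand) encodes a linker histone, and H2BC18 (chr1:149812321-149812620, minus strand) encodes H2B.
H2AC18: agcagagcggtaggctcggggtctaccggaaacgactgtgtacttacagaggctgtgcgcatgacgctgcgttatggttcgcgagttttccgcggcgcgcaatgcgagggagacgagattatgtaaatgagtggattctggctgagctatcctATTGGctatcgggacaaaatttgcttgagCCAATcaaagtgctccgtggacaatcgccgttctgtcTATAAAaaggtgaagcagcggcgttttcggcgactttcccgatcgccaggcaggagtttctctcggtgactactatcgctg
H2AC19: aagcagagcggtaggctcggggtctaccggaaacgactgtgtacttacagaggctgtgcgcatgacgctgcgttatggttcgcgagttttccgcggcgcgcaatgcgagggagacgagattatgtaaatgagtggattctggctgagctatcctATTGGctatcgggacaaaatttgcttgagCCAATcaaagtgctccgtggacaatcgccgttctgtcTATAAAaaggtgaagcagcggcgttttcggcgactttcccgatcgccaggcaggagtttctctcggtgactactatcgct
H1-1: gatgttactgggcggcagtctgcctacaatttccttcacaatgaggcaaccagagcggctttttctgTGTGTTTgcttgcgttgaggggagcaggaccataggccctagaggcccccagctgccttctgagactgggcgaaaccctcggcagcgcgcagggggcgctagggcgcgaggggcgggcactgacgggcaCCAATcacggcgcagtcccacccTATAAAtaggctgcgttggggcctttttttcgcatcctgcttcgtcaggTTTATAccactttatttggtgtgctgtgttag
H2BC18: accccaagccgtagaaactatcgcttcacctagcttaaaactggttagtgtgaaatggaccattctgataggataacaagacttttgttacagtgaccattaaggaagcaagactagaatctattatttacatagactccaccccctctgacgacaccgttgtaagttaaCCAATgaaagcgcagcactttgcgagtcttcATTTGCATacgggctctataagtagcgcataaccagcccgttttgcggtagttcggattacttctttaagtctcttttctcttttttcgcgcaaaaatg

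The H2AC18 and H2AC19 promoters, shifted by 1 base, were identical at 299 of 299 aligned bases. The other HIST2 copy pairs were as close: H3C14 and H3C15 matched at 296 of 296 bases with a shift of 4, and H4C14 and H4C15 at 300 of 300 with a shift of 0. A read from such a stretch has more than 1 perfect home in the genome, and how such reads were treated is not given in the sources used here.

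Values are read counts per region. Levels are given as CPM, the count per 1000000 counts of that library's column, and, where regions differ in length, as CPM per kb. Column totals were 6722508 to 7753937 for H3K4me3, 15605814 to 20410151 for H3K27me3 and 6165169 to 7521451 for H3K79me3. Only part of the H3K27me3 table was used, chromosomes 1 to 19, and its CPM refer to that part. Folds carry exact Clopper-Pearson 95% intervals that cover counting error only, and copies made by PCR were not marked. A zero count allows up to 3 counts, which is 0.387 to 0.446 CPM for H3K4me3, 0.147 to 0.192 CPM for H3K27me3 and 0.399 to 0.487 CPM for H3K79me3. In bulk chromatin, fewer cells carrying a mark and less of it per cell cannot be told apart. The identity of the lines was not checked against epithelial or mesenchymal marker genes, and the genes that control histone transcription (NPAT, SLBP and others) were not analysed here, because no gene positions on hg19 were used.

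H3K4me3 was counted at regions in all 3 histone windows in all 4 lines, and most of these regions stayed close to DLD1. In all, 65 of the 75 regions had more than 3 counts over the 4 lines, and the other 10 were all in the HIST2 window and are described further on. The median region of the 65 had a mean of 15.5 CPM, beside a median of 16.5 CPM over all 36400 regions, and 30 of the 65 were above that median. Per length the median was 32.6 CPM per kb, beside 43.6 over all regions. The series medians include regions with few counts, and over all 75 members the medians were 13.7 CPM and 29.9 CPM per kb. Between the highest and lowest line the median region differed 1.43-fold. All 4 lines lay within 2-fold of each other at 54 of the 65 regions (83.1%), beside 76.0% of all regions with more than 3 counts.

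The strongest region of the first HIST1 window was chr6:26156624-26157220, with 48.9 CPM in DLD1, 54.6 for SA, 50.9 for SPH and 48.5 for METS. Next came chr6:26124531-26125012, with 49.1, 51.7, 52.7 and 43.3 CPM in the same order. The strongest of the second window was chr6:27806421-27806962, with 40.3, 50.9, 48.2 and 44.5 CPM. Per length these 3 regions were alike in mean level or led by the second, at 84.9, 102 and 84.9 CPM per kb. The highest HIST2 region was chr1:149857700-149858135, with 27.1 CPM in DLD1, 25.4 for SA, 25.9 for SPH and 22.3 for METS, or 57.7 CPM per kb on average. Even the strongest member was at percentile 77.4 of all H3K4me3 regions by mean CPM. Of the 75 members, 36 overlapped a gene body under 1 kb and 16 overlapped no gene body.

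SPH had the highest H3K4me3 most often and METS the lowest. SPH was the highest line at 35 of the 65 regions (53.8%, against 38.5% of all regions with more than 3 counts), and METS the lowest at 33 (50.8%, against 27.7%). Summed over all members, H3K4me3 was 1169 CPM in DLD1, 1196 for SA, 1291 for SPH and 1069 for METS. Relative to DLD1 the sum was 1.02-fold in SA (0.992 to 1.05), 1.10-fold in SPH (1.07 to 1.14) and 0.915-fold in METS (0.886 to 0.944). SPH was likewise the highest and METS the lowest line outside the windows, where SA and DLD1 changed places: the 155 regions within 500 kb of them summed to 0.959-fold in SA (0.942 to 0.977), 1.21-fold in SPH (1.19 to 1.23) and 0.905-fold in METS (0.888 to 0.922). By window, the SPH sum was 1.13-fold (1.09 to 1.18) in the first HIST1 window, 1.05-fold (0.989 to 1.11) in the second and 1.06-fold (0.969 to 1.17) in HIST2. The median log2 ratio to DLD1 over the 75 members was 0.00 in SA, 0.13 in SPH and -0.07 in METS, beside -0.01, 0.01 and 0.00 over all regions.

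**Figure D1:**
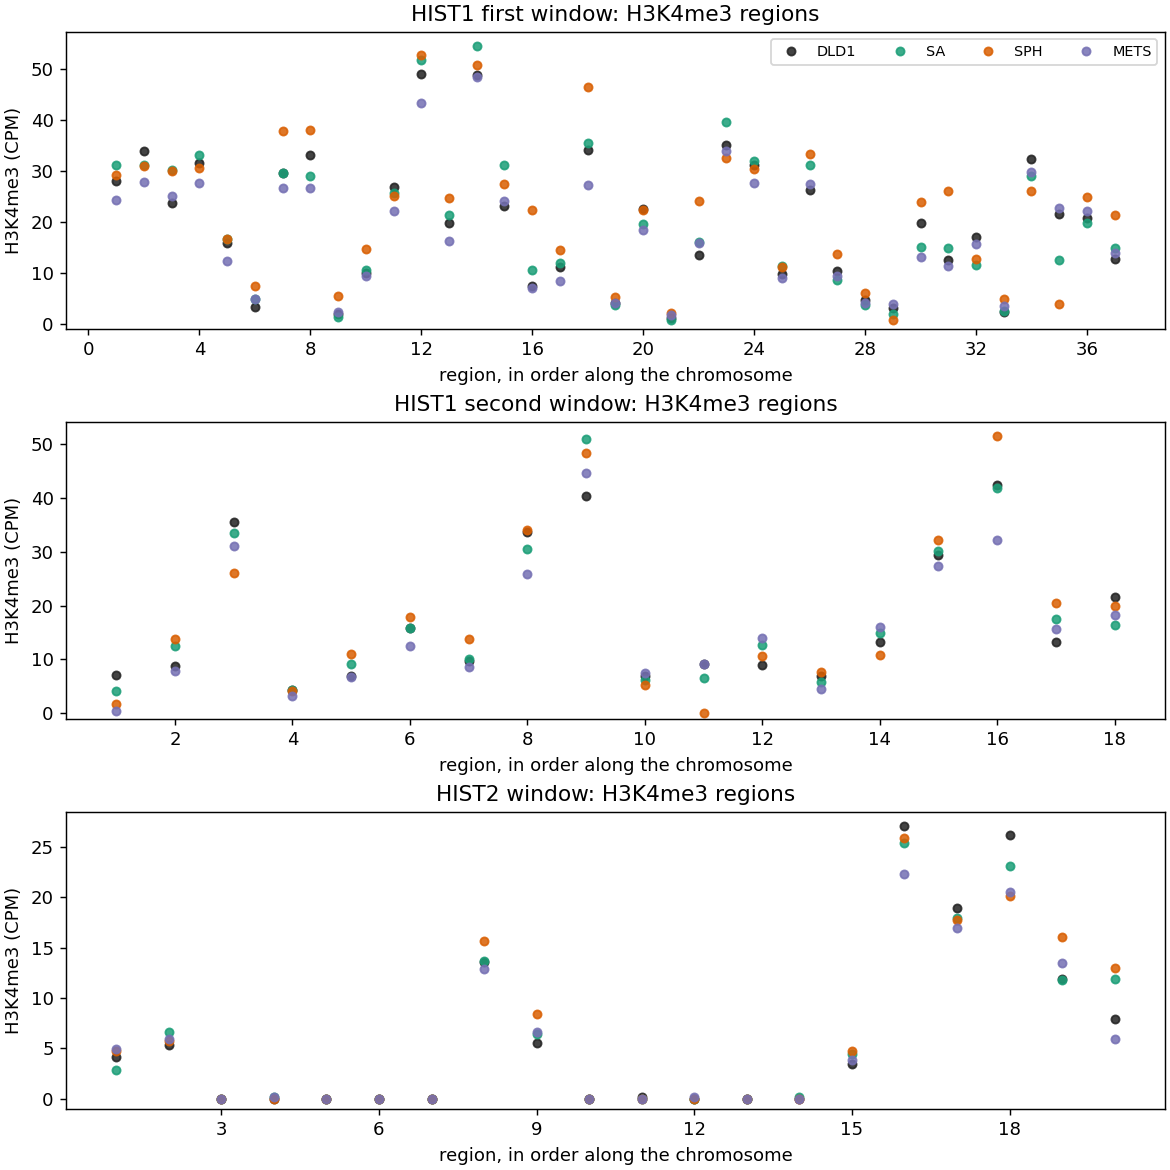
H3K4me3 in CPM (vertical axis) at each region of the first HIST1 window (37 regions), the second (18) and the HIST2 window (20), in order along the chromosome (horizontal axis), with 1 point per line and 1 library per point. The 4 lines lie close together at most regions, and 10 HIST2 regions lie at or near 0 in all of them.

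Regions that departed from DLD1 were few, and all 3 derivatives share the DLD1 library in these comparisons. A region was counted as different when its CPM, with 0.5 CPM added, was at least 2-fold from DLD1. In SA, 0 of 75 members were higher (0.527% of all regions) and 0 were lower (2.10% of all regions). In SPH, 4 were higher (3.58% of all regions) and 4 were lower (3.34% of all regions). In METS, 0 were higher (3.91% of all regions) and 1 was lower (1.09% of all regions). The 4 of 75 each way in SPH are 5.33% of members each, and with counts this small they were not read as different from the share of all regions. None of the departing regions was in HIST2, but 10 of its 20 regions had too few reads to reach 2-fold with 0.5 CPM added. These 10 are counted among the 75 members.

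Among members that reached the series median in DLD1 or the derivative, the largest departure was in SPH. Larger ratios at weaker members are given below. The region was chr6:26251911-26252374, with 21.6 CPM in DLD1, 12.5 for SA, 3.77 for SPH and 22.7 for METS. The 2 epithelial lines were alike, SA was lower and SPH was lowest. The SPH level was 5.71-fold below that of DLD1 (3.77 to 8.97), the SA level 1.72-fold below it (1.32 to 2.25), and METS stood at 1.05-fold (0.838 to 1.33). Its neighbour chr6:26250387-26250854, with a gap of 1056 bp between them, had 32.3, 29.0, 26.1 and 29.7 CPM. There SPH was 0.810-fold DLD1 (0.662 to 0.989), a far smaller difference between the same lines. The region overlaps a deposited gene body, chr6:26251879-26252303, which is of the length of an intronless histone gene. Over that gene body H3K27me3 had 4 reads in DLD1, 8 for SA, 15 for SPH and 1 for METS, too few to order the lines. The H3K27me3 ratio to DLD1 was 1.65-fold in SA (0.443 to 7.50), 2.87-fold in SPH (0.913 to 11.9) and 0.192-fold in METS (0.00391 to 1.94). Each interval includes no difference. H3K79me3 at chr6:26251997-26252383 had 4, 1, 1 and 8 reads, too few to order the lines.

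Other regions that were lower in a derivative were chosen after their values were seen, since the rule for naming regions left out those under the series median. At chr6:27834701-27835319 there were 61 reads in DLD1, 51 for SA, 1 for SPH and 67 for METS. SPH alone was low: its ratio was 64.9-fold lower than in DLD1, with an interval of 11.2 to 2605. The next region upstream, chr6:27833097-27833528, had 47, 48, 38 and 54 reads. The enclosing gene body, chr6:27834570-27835359, had 2, 8, 11 and 4 reads of H3K27me3, a ratio of SPH to DLD1 of 4.21 (0.918 to 39.0). That H3K27me3 interval includes no difference, and these reads were too few to order the lines.

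METS departed at chr6:27775308-27775584, which had 48 reads in DLD1, 32 for SA, 13 for SPH and 3 for METS. All 3 derivatives were below DLD1, by 1.73-fold in SA (1.08 to 2.80), 3.93-fold in SPH (2.10 to 7.90) and 17.4-fold in METS (5.60 to 87.2). The neighbour chr6:27776031-27776560, with a gap of 446 bp, had 59, 97, 98 and 58 reads and was not lower in SA or SPH, and in METS was 0.905-fold DLD1 (0.619 to 1.32). H3K27me3 over the gene body there, chr6:27775257-27775709, had 1, 3, 0 and 3 reads. The weakest of these regions, chr6:26217076-26217493, had 20 reads in DLD1, 14 for SA, 5 for SPH and 28 for METS, 4.26-fold lower in SPH (1.55 to 14.5). The gene body it overlaps, chr6:26217165-26217711, had 2, 7, 6 and 4 reads of H3K27me3, too few to order the lines.

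Of the regions that were higher in SPH, chr6:26159430-26159863 stood first, with 7.44 CPM in DLD1, 10.6 for SA, 22.2 for SPH and 6.98 for METS. The SPH value was 2.99-fold that of DLD1 (2.16 to 4.19), and SA was 1.42-fold (0.988 to 2.06). The adjacent region chr6:26158474-26158906 had 23.2, 31.2, 27.4 and 24.1 CPM, 1.18-fold in SPH (0.952 to 1.47). At chr6:26224568-26225120 the levels were 12.5, 14.8, 26.0 and 11.4 CPM, 2.08-fold in SPH (1.60 to 2.73). This last region fell just under 2-fold when TMM or DESeq2 size factors replaced the column totals, at log2 ratios of 0.999 and 0.991. The remaining pair were weak: chr6:26103487-26103760 had 13, 10, 39 and 16 reads, and chr6:26054803-26055228 had 22, 38, 53 and 36. Each lies beside a stronger region, chr6:26104148-26104605 and chr6:26056026-26056649, where SPH was 1.47-fold (1.07 to 2.03) and 1.28-fold (1.06 to 1.54) DLD1.

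**Figure D2:**
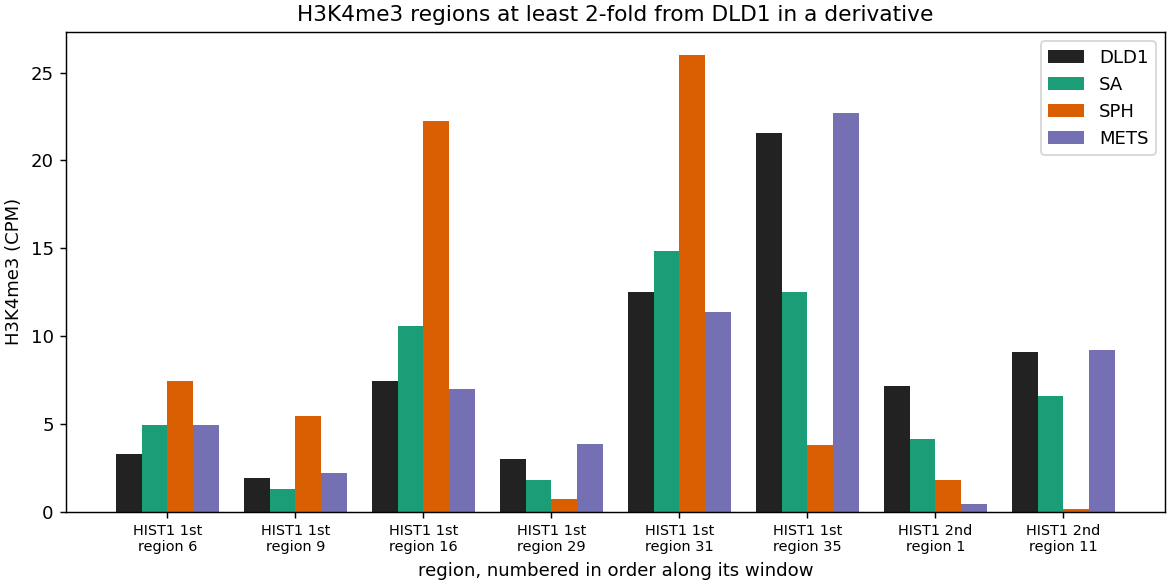
H3K4me3 in CPM (bars, 1 library each, axis from 0) in the 4 lines at the 8 regions that were at least 2-fold from DLD1 in a derivative, numbered along their window. SPH was highest at 4 regions and below DLD1 at the other 4, and METS was lowest at region 1 of the second HIST1 window.

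Taking each line as 1 sample, SA and SPH were compared with DLD1 and METS by edgeR's quasi-likelihood test over all regions of a mark, with Benjamini-Hochberg adjustment. The p-values set the difference between the pairs against the spread within each pair. They cover these 4 lines, all of DLD1 origin, and nothing beyond them. For H3K4me3, 0 of 69 members with a count were called higher in the mesenchymal lines (0.00561% of all regions) and 0 lower (0.292% of all regions). At an unadjusted p under 0.05 there were 7 members, beside 11.0% of all regions, and the DESeq2 Wald test also called 0. The lowest adjusted p from edgeR was 0.102, at chr6:26251911-26252374, followed by 0.192 at chr6:26159430-26159863. Leaving out any line left 1 sample in a group, which was then assumed to vary like the others. The share of all regions called in those fits was not taken, so their calls are not read here.

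H3K27me3 counts were low over the gene bodies of the histone windows in every line. The deposited H3K27me3 intervals are gene bodies. Of the 76, 56 were under 1 kb, a size that histone genes can have. Gene names were not used, so histone genes with longer annotated bodies may be among the other 20. Per length these 56 carried 0.212 CPM per kb in DLD1, 0.181 for SA, 0.265 for SPH and 0.193 for METS. All 18621 intervals under 1 kb in the table carried 0.982, 0.991, 0.924 and 0.934 CPM per kb, and the 140 intervals within 500 kb outside the windows 0.419, 0.335, 0.303 and 0.363. The summed level of the 56 was thus lower than that of both sets in all 4 lines. The median interval had 0.191 CPM per kb among the 56, 0.419 among all under 1 kb and 0.290 among the 140 outside. Of the 56, 8 were in HIST2, where values near 0 in the mirrored arms described further on cannot be read as absence of a mark. How reads with several matches were treated is not given, and their effect on these levels was not tested. The depth behind this is thin: 88, 91, 144 and 104 reads over all 56 gene bodies.

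No H3K27me3 member was at least 2-fold from DLD1 in any derivative. This count was 0 of 76 in each direction, in SA (0.318% of all intervals higher and 0.472% lower), SPH (0.684% and 1.39%) and METS (0.488% and 0.738%). Most members had too few reads for such a call, since 0.5 CPM was added. Summed over the short gene bodies, the ratio to DLD1 was 0.854 in SA (0.630 to 1.16), 1.25 in SPH (0.953 to 1.65) and 0.909 in METS (0.678 to 1.22), all with intervals that include 1. Over all 76 intervals the ratio was 0.817 in SA (0.723 to 0.923), 0.914 in SPH (0.814 to 1.03) and 0.871 in METS (0.774 to 0.980). Overlapping intervals count some reads more than once here: chr1:149754245-149783928 and chr1:149754433-149783312 both had 84, 87, 88 and 89 reads. The 140 intervals outside were lower too, at 0.798 in SA (0.778 to 0.820), 0.723 in SPH (0.704 to 0.742) and 0.867 in METS (0.846 to 0.890). In edgeR, 0 of 67 members were called higher in the mesenchymal lines (0.343% of all intervals) and 0 lower (0.294%). There were 3 at an unadjusted p under 0.05, beside 8.81% of all intervals, and DESeq2 called 0. The lowest adjusted p from edgeR, 0.276, belonged to the gene body chr6:26251879-26252303, which overlaps the H3K4me3 region chr6:26251911-26252374.

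**Figure D3:**
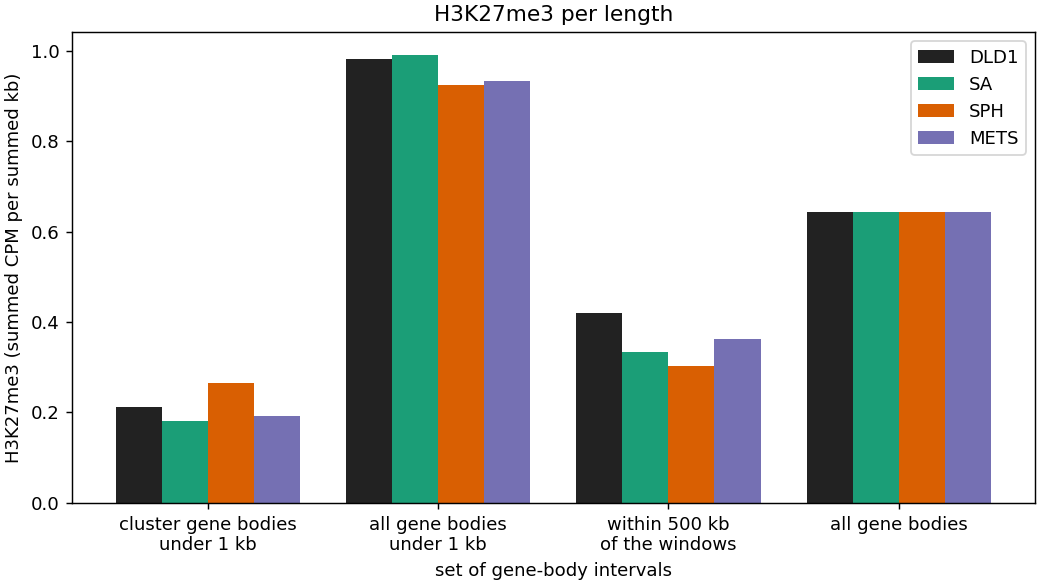
H3K27me3 in CPM per kb of summed interval length (bars, 1 library each, axis from 0) over the 56 cluster gene bodies under 1 kb, all 18621 gene bodies under 1 kb, the 140 intervals within 500 kb outside the windows, and all intervals of the table. The cluster gene bodies lie between 0.181 and 0.265, below the other sets in every line.

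The gene bodies were split into those that overlapped an H3K4me3 region and those that did not. A region beside a gene body was not counted, as with chr6:26224568-26225120 and the gene body chr6:26225383-26225844. Of the 56 short gene bodies, 34 overlapped an H3K4me3 region with more than 3 counts, 2 overlapped only regions with fewer, and 20 overlapped none. Of the 20, 16 were in the first HIST1 window, 3 in the second and 1 in HIST2. They include neighbours such as chr6:26043455-26043885, chr6:26044217-26044585 and chr6:26045639-26046097, named after the values were seen. These 20 had 0.305 CPM per kb of H3K27me3 in DLD1, 0.202 for SA, 0.346 for SPH and 0.291 for METS. The 34 with H3K4me3 had 0.183, 0.187, 0.248 and 0.159. The gene bodies without an overlapping H3K4me3 region were higher in each line, though by little in SA, yet still under the level of all short intervals. Of the 34, 5 were in HIST2, so the 2 sets also differ in their windows. The values rest on 41, 33, 61 and 51 reads without and 47, 58, 83 and 53 reads with H3K4me3, and the difference was not tested. A gene body with no H3K4me3 region has no H3K4me3 value in these tables, which is not a value of 0, and short intervals may also be pseudogenes or other genes.

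H3K79me3 in the windows was concentrated in a single run on chromosome 1. The 9 adjacent regions from chr1:149814665-149815112 to chr1:149821856-149822273 carried 24.2 CPM per kb in DLD1, 29.3 for SA, 23.1 for SPH and 20.1 for METS. The other 32 members carried 4.54, 5.01, 4.83 and 5.52 CPM per kb, beside 16.7 over all regions of the table. The highest member was chr1:149816187-149816638, with 17.5 CPM in DLD1, 22.8 for SA, 14.4 for SPH and 11.5 for METS, at percentile 91.2 of all regions by mean CPM. SA was highest and METS lowest along the run: relative to DLD1 its sum was 1.21-fold in SA (1.09 to 1.35), 0.953-fold in SPH (0.844 to 1.07) and 0.829-fold in METS (0.732 to 0.938). The other 32 members summed to 1.22-fold in METS (1.06 to 1.39), 1.10-fold in SA (0.966 to 1.26) and 1.07-fold in SPH (0.925 to 1.23). The METS sum was thus below that of DLD1 inside the run and above it outside. Single regions varied: METS was above DLD1 at 2 of the 9 regions of the run and at 20 of the other 32. Over all H3K79me3 regions METS was above DLD1 at 87590 of 157878, with a median log2 ratio of 0.07. The higher METS values outside the run were therefore not read as particular to the members, and the run was chosen after its values were seen. The run spans the gene body chr1:149816065-149820591, at 4, 15, 13 and 10 reads of H3K27me3, and ends on both sides at the regions of H3K4me3 next to the mirror centre described further on.

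A shorter stretch of H3K79me3 lay in the first HIST1 window, in 5 regions between positions 26124546 and 26127868 of chromosome 6. It began within the second strongest H3K4me3 region of the window, chr6:26124531-26125012, and continued in the gene body chr6:26124373-26139344. That interval is 14972 bp long and was not given a gene name. At chr6:26125790-26126132 there were 18 reads in DLD1, 37 for SA, 26 for SPH and 29 for METS. At chr6:26126656-26127072 there were 41, 34, 15 and 23. These regions of 1 stretch put DLD1 lowest in one case and highest in the other. The highest single region of the window was chr6:26225287-26225690, with 55, 54, 56 and 64 reads. It lay over chr6:26225383-26225844, the only short gene body that overlapped H3K79me3 and no H3K4me3 region. The H3K4me3 region chr6:26224568-26225120 was nonetheless close, with 167 bp between it and this H3K79me3 region. Another 9 short gene bodies overlapped both marks.

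Few H3K79me3 members departed from DLD1. In SA, 0 of 41 were higher (1.08% of all regions) and 1 was lower (2.30% of all regions). In SPH, 2 were higher (3.03%) and 2 lower (5.11%), and in METS 3 were higher (7.14%) and 1 lower (2.06%). These shares are near those of all regions. The SPH-lower regions were chr6:26126656-26127072, 2.24-fold lower (1.21 to 4.36), and chr6:27802757-27803154, with 26, 23, 9 and 19 reads, 2.37-fold lower (1.08 to 5.74). Neither was 2-fold lower with TMM or DESeq2 size factors, or with 2 CPM added. The region chr6:26156645-26157077, named after its values were seen, lies within the strongest H3K4me3 region and had 4 reads in DLD1, 5 for SA, 7 for SPH and 18 for METS, 5.26-fold higher in METS (1.73 to 21.4). H3K4me3 at that place differed little between METS and DLD1, 0.990-fold (0.850 to 1.15). Over all 41 members the sum was 1.17-fold in SA (1.07 to 1.27), 0.998-fold in SPH (0.911 to 1.09) and 0.986-fold in METS (0.900 to 1.08). The SPH sum gave no direction, since it became 1.07-fold with TMM and 1.09-fold with DESeq2 size factors, the latter raising the median log2 ratio of all H3K79me3 regions in SPH by 0.10. The 195 regions within 500 kb outside summed to 1.03-fold in SA (0.990 to 1.06), 0.908-fold in SPH (0.874 to 0.944) and 0.954-fold in METS (0.919 to 0.990). In edgeR, 0 of 39 members were called in either direction (0.00% of all regions each way), 0 had an unadjusted p under 0.05 (2.99% of all regions), and DESeq2 called 0.

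**Figure D4:**
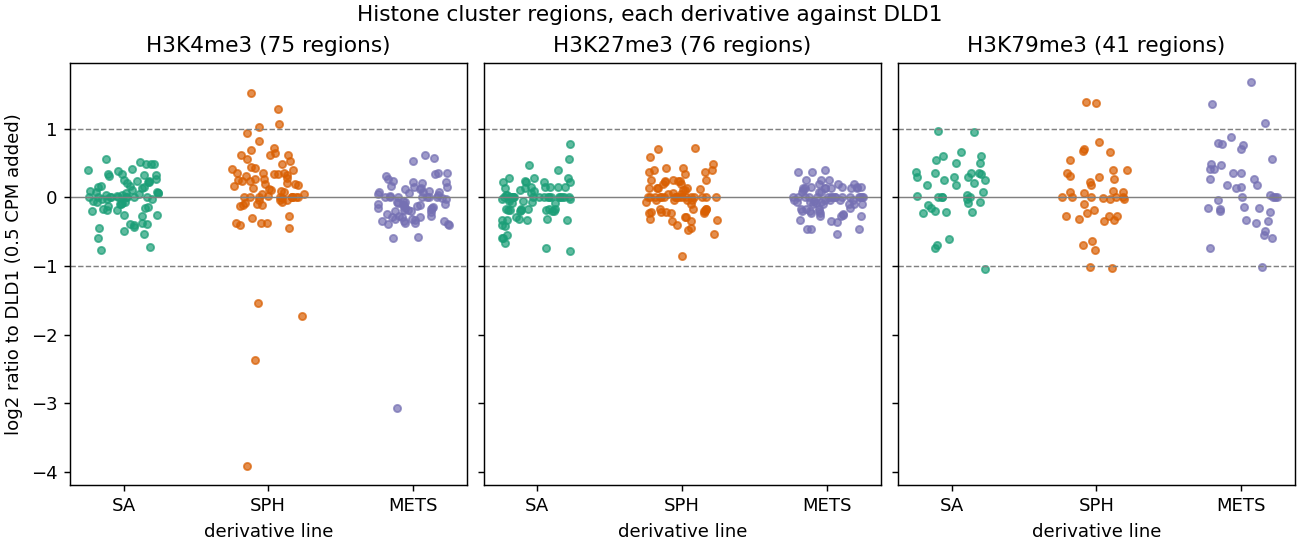
Log2 ratio of each derivative to DLD1 with 0.5 CPM added (vertical axis; each point is 1 member region, dashed lines at 2-fold) for H3K4me3 (75 regions), H3K27me3 (76) and H3K79me3 (41). Most points lie between the dashed lines, all H3K27me3 points do, and the lowest H3K4me3 points are chr6:27834701-27835319 in SPH (-3.90) and chr6:27775308-27775584 in METS (-3.07).

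The HIST2 window differed from the HIST1 windows in holding regions with almost no reads. Of its 20 H3K4me3 regions, 10 had at most 3 counts over the 4 lines together, and no library had more than 1 count at any of these. There were 0 such regions among the 55 of the HIST1 windows, and 3.91% among all H3K4me3 regions. H3K27me3 had 10 such intervals of 18 in HIST2 and 11 of 58 elsewhere, and 11.2% over the table. H3K79me3 had 3 of 13 and 1 of 28, and 2.26% over the table.

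The low-count regions were laid out as mirror images. Around a common centre, 6 pairs of H3K4me3 regions had midpoints at the same distance on either side, to within 62.25 bp, and 5 of these pairs were made up of low-count regions. The pair nearest the centre had reads: chr1:149814600-149815184 had 91 in DLD1, 106 for SA, 112 for SPH and 94 for METS, and chr1:149821857-149822286 had 37, 50, 60 and 48. The H3K27me3 intervals mirrored in 4 pairs, all low, of which one paired 7119 bp (chr1:149804221-149811339) with 7108 bp (chr1:149825607-149832714) and another 1656 bp (chr1:149811110-149812765) with 1656 bp (chr1:149824181-149825836). The H3K79me3 run lay between the low-count arms. RefSeq places copies of H2A, H3 and H4 genes in HIST2 with identical promoters, as the H2AC18 and H2AC19 sequences above show. Values at or near 0 in these arms therefore cannot be read as absence of a mark, and whether reads with several matches were dropped was not tested.

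**Figure D5:**
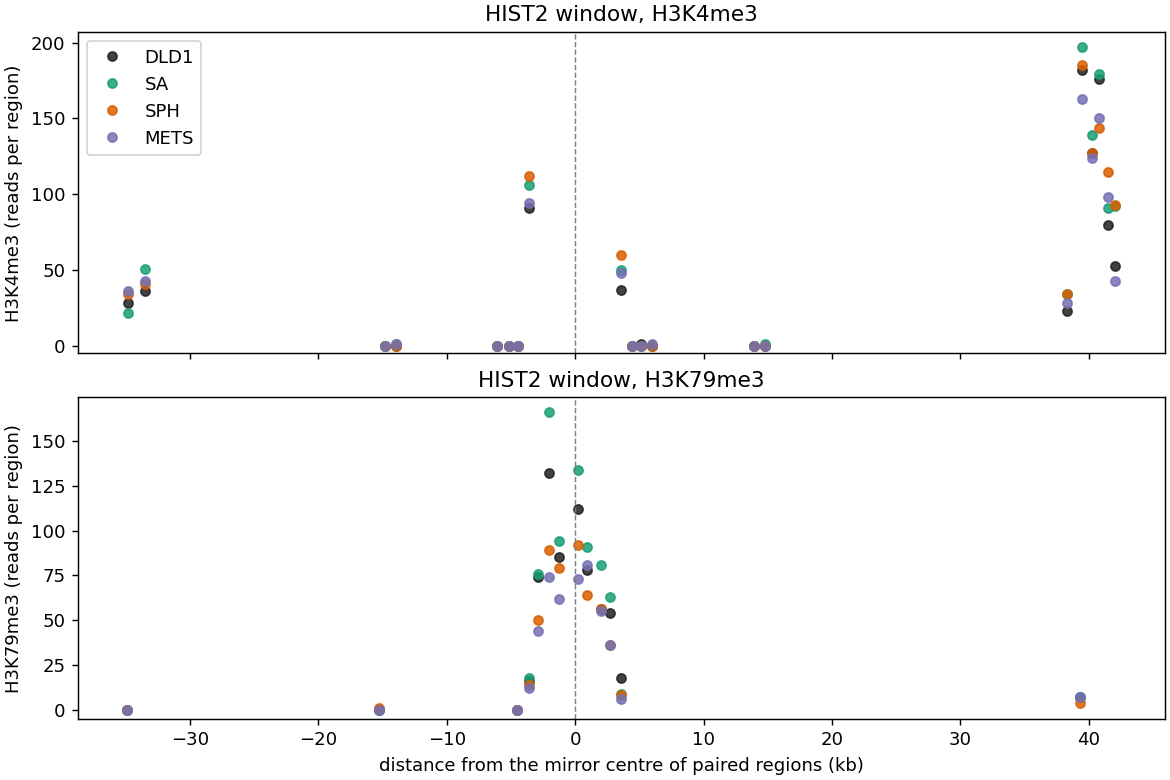
Reads per region of H3K4me3 (top) and H3K79me3 (bottom) in the HIST2 window against the distance of the region from the mirror centre in kb (dashed line), with 1 point per line. H3K4me3 regions at matching distances on both sides are near 0 in all 4 lines except the innermost pair, and the H3K79me3 run sits between them.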

How the data were processed

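ChIP-seq for H3K4me3, H3K27me3 and H3K79me3 was analysed in DLD1, SA, SPH and METS, 1 library per line and mark (12 in all). The authors deposited 1 column of raw counts per library, recognised by whole numbers with unequal totals. The build was hg19, per the submitters' processing notes. Aligner, region caller, treatment of reads with several matches, duplicates and input control are not given in the sources used here. For H3K27me3, 7773 rows were not used here, which a closing line of the file gives as skipped. Counts were divided by column totals (CPM). Log2 ratios used CPM with 0.5 added and a 2-fold threshold. Folds used CPM alone with exact Clopper-Pearson 95% intervals (SciPy 1.17.1), conditional on the sum of both counts. Lines were compared by edgeR 4.0.16 quasi-likelihood tests with column totals, adjusted over all regions with a count (threshold 0.05). DESeq2 1.42.0, TMM factors, other thresholds and leaving out each line were alternatives. Scripts were tested on simulated data. Mirrored regions had midpoints matching within 100 bp. The named regions were, per mark and window, up to 4 with the highest mean (per kb for H3K27me3), per derivative up to 4 each way by log2 ratio among those reaching the series median, those called by edgeR, and the 2 lowest. Others were named after their values were seen. Members, windows and lists were chosen with earlier results of these data known, and the mirror layout, the split of gene bodies and the H3K79me3 run were chosen after values were seen. RefSeq (GRCh38.p14) supplied promoter sequences by symbol only.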

Additional observations from a re-analysis of the deposited data

How the results depend on the processing

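Of 123 alternative values of the main results, 90 stayed close to the main value (counts within 1.5-fold, summed ratios within their interval) and 33 moved. Counts of members at least 2-fold from DLD1 moved with both the value added to CPM and the fold threshold. With 0.1 CPM added, H3K4me3 counts became 3 in SA and 4 in METS, H3K27me3 counts 10, 11 and 6 in SA, SPH and METS, and H3K79me3 counts 7, 10 and 8. With 2 CPM added, H3K4me3 had 4 in SPH, and H3K79me3 had 0 in all 3 derivatives. With a 1.5-fold threshold, H3K4me3 counts were 3, 16 and 3, H3K27me3 had 6 in SA and 4 in SPH, and H3K79me3 counts were 9, 11 and 11. Among regions at or above the series median, H3K4me3 had 0 in SPH and METS, and H3K79me3 had 0, 1 and 0, as fewer regions were considered. TMM and DESeq2 size factors each left 2 H3K79me3 regions in SPH, both higher. The shares of all regions were not taken at these other settings, so the counts show only how far the calls move and nothing particular to the members. The median of region ratios gave 0.95 in METS for H3K4me3, 1 in SA and in METS for H3K27me3, and 1.10 in METS for H3K79me3, in place of the ratio of sums. Summed ratios that crossed 1 were H3K79me3 in METS under that median, H3K79me3 in SPH (0.998) at 1.07 with TMM, 1.09 with DESeq2 size factors and 1.001 with the median, and H3K27me3 in SPH (0.914) at 1.01 for intervals wholly inside a window. The edgeR fits that left out a line had 1 sample in a group, and their calls are not read here. Of 36 alternative values for single regions, 30 stayed past 2-fold and 6 did not: with 2 CPM added, log2 ratios in SPH were -0.88 at chr6:26217076-26217493, 0.84 at chr6:26054803-26055228, 0.92 at chr6:26103487-26103760 and 0.95 at chr6:26224568-26225120, and the last also missed 2-fold with TMM and DESeq2 size factors. The cause of these moves was otherwise not tested. No paired analysis was possible because each line has 1 library per mark. Regions of few reads, H3K27me3 above all, could show only large differences at this depth.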
